A study of Saccharomyces eubayanus and Saccharomyces cerevisiae x Saccharomyces eubayanus with 20 samples.

Results

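The comparison described here covered the genes of the S. eubayanus subgenome of HTSH020, a laboratory hybrid of S. cerevisiae and S. eubayanus, and asked how their transcript levels on maltose differed from those of the same genes in IMX1765, an engineered S. eubayanus strain. A gene was included if its row lay on the S. eubayanus CDFM21L.1 assembly and was listed for both strains. This gave 5511 of the 11292 genes listed for the hybrid and of the 5513 listed for IMX1765. Both models of a divided gene were then joined and the 3 copies of SeAGT1 summed, leaving 5506 genes, of which 5412 had a mean of at least 1 and were tested. The values of these genes were rescaled to sum to 1000000 in each library, because the hybrid had been counted on the genes of 2 species and IMX1765 on those of 1. They are called rescaled FPKM (fragments per kilobase of gene length, scaled to the number of mapped reads) below.

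The study addressed why Himalayan S. eubayanus strains with maltose and maltotriose transporter genes do not use these sugars, and whether hybridization restores their use. IMX1765 derives from the diploid isolate CDFM21L.1, which the labels give as a wild type unable to use maltose and maltotriose. In IMX1765, both SeSGA1 alleles are replaced by the S. cerevisiae regulator gene ScMAL13 between the ScPGK1 promoter and the ScTEF2 terminator. HTSH020 (written HTS020 in the labels) was made by mating a spore of CDFM21L.1 with a spore of CBC-1, an S. cerevisiae ale strain that lacks MAL11 (AGT1). The hybrid is MATa/MATα, uses both sugars, carries 1 S. eubayanus genome from a single spore, without the ScMAL13 cassette and with SeSGA1 intact, and was restreaked on maltose after mating. Both strains were grown at 20°C in synthetic medium with 20 g liter−1 maltose or glucose and sampled in mid-exponential phase, as 2 cultures per strain and sugar. The study calls these cultures biological duplicates. Each SE (±) below comes from 1 fit to 8 libraries and pools the spread within the 4 groups, with the glucose cultures among them. It is thus not the spread of the 2 maltose cultures of a strain, which lay farther apart than the glucose cultures.

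In yeasts of this genus, maltose and maltotriose are taken up by proton symporters of the MALT and AGT1 families and split to glucose inside the cell by maltases (MALS). Transporter and maltase genes are commonly transcribed from a shared promoter, which is activated by a regulator (MALR) when maltose is present and repressed by glucose. Gene names and functions given here are those of the S. cerevisiae gene with the same systematic name, unless the name begins with Se, which marks the genes that the files name for S. eubayanus itself.

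For HTSH020 on maltose, 18260141 and 23175074 reads were recovered on genes, of which 49.9% and 50.6% lay on S. eubayanus genes. For IMX1765 on maltose, these were 25207706 and 22235339 reads. The marker of the engineered locus matched the labels. SGA1 had 45 and 83 reads in the hybrid and 0 and 5 in IMX1765, in which ScMAL13 was at 331 and 744 FPKM. Culture 1 of HTSH020 on maltose carries 2 labels that disagree. Its title and its carbon source name maltose, while its description names the maltotriose medium. The descriptions of both hybrid cultures titled maltotriose name the maltose medium, so that an exchange of descriptions or of cultures cannot be told apart from the labels. Across genes, it correlated with culture 2 on maltose at 0.978, with the glucose cultures of the hybrid at 0.945 and 0.949, and with the cultures titled maltotriose at 0.755 and 0.745. It was therefore kept as a maltose culture, as titled. Of 646 genes at least 2-fold apart between culture 2 and the glucose cultures of the hybrid, culture 1 lay between them for 578 (89.5%). The median SD between cultures, on the log2 scale, was 0.165 for HTSH020 and 0.143 for IMX1765 on maltose, against 0.0729 and 0.0524 on glucose.

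On maltose, 682 S. eubayanus genes were higher in HTSH020 than in IMX1765 (12.6% of the genes tested) and 687 were lower (12.7%), at an adjusted p under 0.05 in limma. At least 2-fold, 159 genes were higher (2.94%) and 113 were lower (2.09%). The median log2 difference of all genes was 0.05. Other settings called fewer genes, and counts of lists under them are to be read beside these totals. With the chromosome median subtracted from each gene, 388 of 5412 were higher and 427 lower. The maltose libraries alone gave 202 and 226 of 5394, and the fit of all 20 libraries 288 and 334 of 5420. The counts moved with single cultures. Leaving out a maltose culture leaves 1 in its group, so that such a fit holds no spread of that group. Its p values rest on the spread of the other groups, here and below. Without IMX1765 culture 1, 388 genes were higher and 533 lower, and without HTSH020 culture 2, 1123 were higher and 747 lower. Without HTSH020 culture 1, the culture with conflicting labels, 669 were higher and 892 lower. All log2 differences are on log2(rescaled FPKM + 1), a scale that understates the differences of genes with few reads, and folds are ratios of group means.

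The 9 maltose genes did not move as a group. SeMALS2 and SeMALR1 were higher in HTSH020, SeMALT1 was lower, and 6 did not pass the test. Among all genes tested, 12.6% were higher and 12.7% lower. The median difference of the 9 genes was −0.37, against 0.05 for all genes. Summed over its copies, SeAGT1, the maltose and maltotriose transporter gene, had the highest level of the 9 in either strain. It was at 6379 and 13421 rescaled FPKM in HTSH020 and at 10138 and 14075 in IMX1765, summed over the copies on chromosomes 7, 14 and 15. The 2 groups overlapped, and the log2 difference was −0.37 ± 0.32 (SE; adjusted p = 0.429, limma). On glucose, the gene was at 13.3 and 11.2 in HTSH020 and at 5.87 and 4.49 in IMX1765. The rows on chromosomes 7, 14 and 15 had 40191, 38688 and 40205 reads in HTSH020 culture 1 on maltose. Reads may thus have been counted at each copy, which would inflate the sum. In that culture the single rows were at 2153, 2072 and 2154 rescaled FPKM, below SeMALS2 at 2359. In the other maltose cultures of both strains each single row was above SeMALS2.

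The maltase gene SeMALS2 (chr12:413756-415513) was at 2359 and 2979 rescaled FPKM in HTSH020 and at 1194 and 2042 in IMX1765. Both hybrid cultures were above both IMX1765 cultures, with a 1.65-fold higher mean and a log2 difference of 0.76 ± 0.23 (adjusted p = 0.0434). SeMALS1 (chr2:17343-19100), the other maltase gene, was at 1617 and 2009.6 in HTSH020 and at 885 and 1439.9 in IMX1765. Its cultures did not overlap either, while its adjusted p of 0.0507 missed the threshold. Both maltase genes were also higher in the hybrid on glucose, where SeMALS2 was at 22.6 and 23.6 against 9.96 and 10.2 (adjusted p = 0.0107), and SeMALS1 at 16.7 and 16.7 against 7.86 and 7.92 (adjusted p = 0.0127). The call of SeMALS2 on maltose did not hold without IMX1765 culture 1 (0.38, adjusted p = 0.147) or without HTSH020 culture 2 (0.60, adjusted p = 0.115), and without IMX1765 culture 2 the difference was 1.15.

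SeMALT1 (chr2:20652-22436), a maltose transporter gene, was at 7.76 and 8.10 rescaled FPKM in HTSH020 and at 12.2 and 15.1 in IMX1765. It was lower in the hybrid by 0.71 ± 0.16 on the log2 scale, a 1.72-fold lower mean (adjusted p = 0.0179), and without IMX1765 culture 2 the adjusted p was 0.0594. IMX1939 was made separately from CDFM21L.1, by deletion of SeMALT1 and then insertion of the ScMAL13 cassette. In IMX1939, the gene was listed at 0.979 and 0.848 on maltose. The transporter genes SeMALT2 and SeMALT3 are each interrupted by a stop codon according to the study. SeMALT2 (chr12:411099-412936) was at 172 and 476 in HTSH020 and at 81.2 and 159 in IMX1765, a log2 difference of 1.32 ± 0.46 (adjusted p = 0.0676). SeMALT3 (chr13:16978-18747) was at 116 and 239 in HTSH020 and at 201 and 313 in IMX1765 (adjusted p = 0.213). For SeMALT2 the 2 hybrid cultures were the highest of the 4, and for SeMALT3 the groups overlapped.

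The regulator genes were among the lowest of the 9. According to the study, SeMALR1 is interrupted by a stop codon too. The study proposes that the S. eubayanus regulators do not function, so that a higher SeMALR1 transcript is not evidence of more regulator activity. SeMALR1 (chr5:564744-566016) was at 51.4 and 65.1 rescaled FPKM in HTSH020 and at 33.2 and 41.1 in IMX1765. Both hybrid cultures were higher, by 0.63 ± 0.17 on the log2 scale (adjusted p = 0.0281). This call did not hold without IMX1765 culture 1 (0.48, adjusted p = 0.124) or without HTSH020 culture 2 (0.47, adjusted p = 0.0675). SeMALR3 (chr13:21257-22669) was at 15.0 and 52.5 in HTSH020 and at 62.3 and 94.1 in IMX1765, and its adjusted p was 0.0665. SeMALR2 (chr13:14643-16028) was at 37.0 and 77.7 in HTSH020 and at 66.5 and 82.3 in IMX1765, with overlapping groups (adjusted p = 0.297). Without HTSH020 culture 2, which leaves 1 hybrid culture on maltose, the log2 differences were −0.90 for SeAGT1, −1.10 for SeMALT3, −0.98 for SeMALR2 and −2.28 for SeMALR3. Without HTSH020 culture 1, the difference was 2.06 for SeMALT2 and 0.83 for SeMALS1, and without IMX1765 culture 2 it was 1.03 for SeMALS1.

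For 6 of the 9 genes the cultures of the 2 strains did not overlap. The same held for 54.8% of all genes tested, namely 28.8% that were higher in the hybrid and 26.0% that were lower. In both strains, culture 2 on maltose had more transcript of each of the 9 genes than culture 1. Without HTSH020 culture 2 none of the 9 was higher and 5 were lower, and without HTSH020 culture 1, 4 were higher and 1 lower. Without IMX1765 culture 1 none was higher and 1 lower, and without IMX1765 culture 2, 3 were higher and none lower. With the maltose libraries alone or in the fit of all 20 libraries, none of the 9 passed in either direction.

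**Figure D1:**
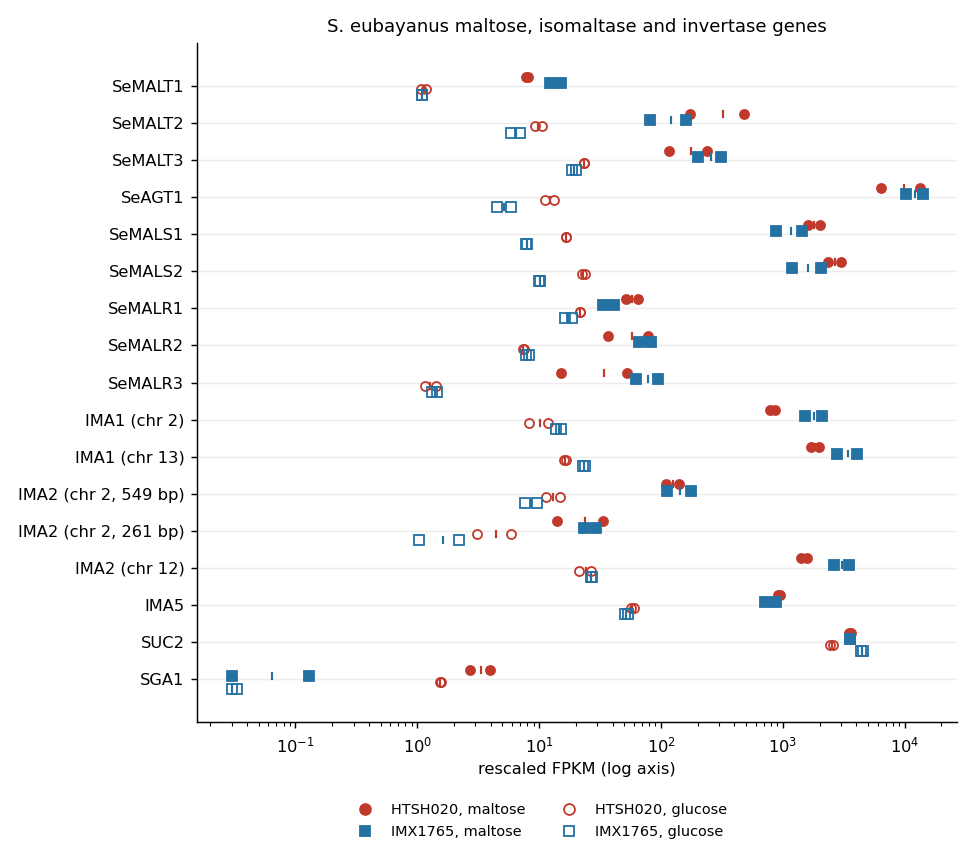
Rescaled FPKM (log axis) of the S. eubayanus maltose, isomaltase and invertase genes and of SGA1, with 1 point per culture and a bar at the group mean, for HTSH020 (red circles) and IMX1765 (blue squares) on maltose (filled) and glucose (open). SeAGT1, summed over its copies, was highest and overlapped between the strains on maltose. The IMA1 rows and the IMA2 row on chromosome 12 were lower in HTSH020, and a value of 0 (SGA1 in IMX1765) is drawn at the left edge.

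Isomaltases split the α-1,6 bond of isomaltose and panose. Of 7 rows of the isomaltase and invertase list, 3 isomaltase rows were lower in HTSH020 and none was higher, against 12.7% and 12.6% of all genes. IMA1 on chromosome 2 (chr2:11732-12427) was at 781 and 862 rescaled FPKM in HTSH020 and at 1509 and 2113 in IMX1765. IMA1 on chromosome 13 (chr13:11903-13396) was at 1686 and 1966 in HTSH020 and at 2766 and 4073 in IMX1765. IMA2 on chromosome 12 (chr12:419651-421420) was at 1401 and 1587 in HTSH020 and at 2625 and 3484 in IMX1765. Every hybrid culture was below every IMX1765 culture for these rows, with means 2.20-fold, 1.87-fold and 2.05-fold lower and log2 differences of −1.12 ± 0.20, −0.88 ± 0.17 and −1.02 ± 0.16 (adjusted p = 0.00608, 0.00939 and 0.00385). The short IMA2 rows on chromosome 2 overlapped between the strains (adjusted p = 0.632 and 0.676). Reads of these rows are uncertain, since the isomaltase genes are near-identical to each other.

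IMA5, a further isomaltase gene, lies beside SeMALR1 on chromosome 5 and was at 945 and 912 rescaled FPKM in HTSH020 and at 717 and 875 in IMX1765 (0.23 ± 0.12, adjusted p = 0.183, and 0.0428 without IMX1765 culture 2). The invertase gene SUC2 was at 3508 and 3633 in HTSH020 and at 3569.6 and 3566 in IMX1765. Its log2 difference was 0.00 ± 0.08 (adjusted p = 0.994), with groups that overlapped. On glucose, SUC2 was at 2438 and 2596 in HTSH020 and at 4395 and 4532 in IMX1765, so that the difference between the strains was more positive on maltose by 0.83 ± 0.12 (adjusted p = 0.0118 for the difference of differences).

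The 12 largest differences in each direction were taken only from called genes whose cultures did not overlap. That their cultures were apart was thus a condition of the choice and no further result. Among the 12 in favor of the hybrid were several with little transcript in IMX1765. COX26 (chr2:502386-502586), which encodes a small subunit of cytochrome c oxidase, was at 1614 and 2526 rescaled FPKM in HTSH020 and at 46.1 and 50.9 in IMX1765. It was 42.7-fold higher, with a log2 difference of 5.35 ± 0.23 (adjusted p = 9.04e-06). CHA1 (chr3:11003-12088), a serine and threonine deaminase, was at 113 and 72.9 in HTSH020 and at 1.36 and 1.74 in IMX1765. YHB1 (chr7:977846-979045), a flavohemoglobin that detoxifies nitric oxide, was at 217 and 207 in HTSH020 and at 7.67 and 6.40 in IMX1765. The log2 differences were 5.17 ± 0.21 for CHA1 and 4.73 ± 0.13 for YHB1 (adjusted p = 8.04e-06 and 1.67e-06). The S. cerevisiae genes of the same names were expressed in the same hybrid cultures too, at 3047 and 4639.8 for COX26, 129 and 100.2 for CHA1, and 680.4 and 657 for YHB1, on the same scale.

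PDC5 (chr5:583712-585403), a pyruvate decarboxylase gene, was at 3376 and 3832 rescaled FPKM in HTSH020 and at 56.1 and 331 in IMX1765. On the log2 scale, the 2 IMX1765 cultures differed more from each other than the hybrid cultures did. The log2 difference between the strains was 4.71 ± 0.65 (adjusted p = 0.00202). In IMX1939 on maltose, PDC5 was at 18.7 and 90.5. FLO11 (chr9:367523-371134), a cell surface flocculin, was at 68.1 and 60.1 in HTSH020 and at 2.13 and 2.18 in IMX1765. It was 29.7-fold higher (4.36 ± 0.15, adjusted p = 3.68e-06), and in IMX1939 it was at 3.33 and 3.72. The S. cerevisiae FLO11 was at 234 and 238 in the same hybrid cultures. How the reads of the hybrid divide between the 2 FLO11 genes was not tested. SGE1, a drug exporter gene with near-identical rows on chromosomes 12 and 13, was at 24.3 and 17.1 in HTSH020 and at 0.433 and 0.336 in IMX1765 for the row on chromosome 13. Both rows were higher in the hybrid, by 3.95 ± 0.21 and 3.56 ± 0.25 (adjusted p = 3.04e-05 and 8.02e-05). How the reads divide between the SGE1 rows is uncertain.

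**Figure D2:**
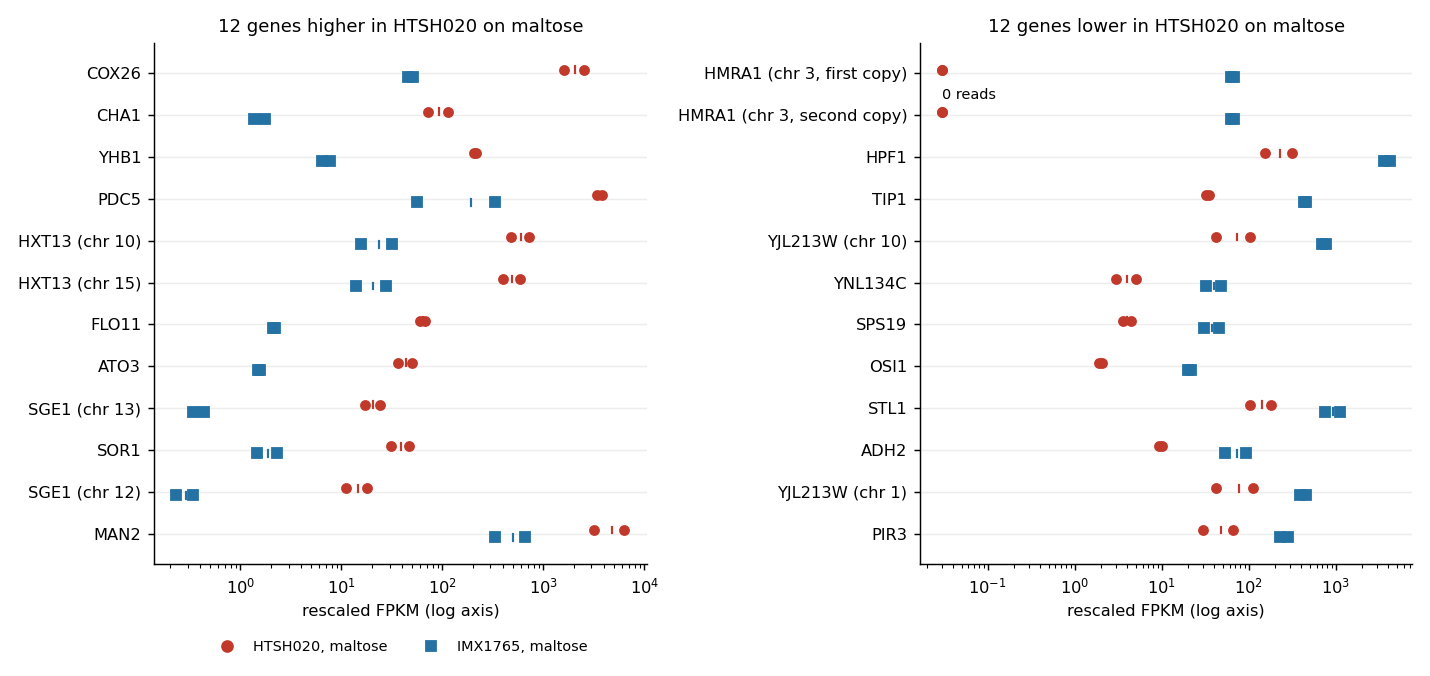
Rescaled FPKM (log axes) of the S. eubayanus genes with the 12 largest positive (left) and the 12 largest negative (right) log2 differences between HTSH020 (red circles) and IMX1765 (blue squares) on maltose, 1 point per culture and a bar at the mean. Shown are genes past the test whose cultures did not overlap and whose higher mean was at least 10, and HMRA1, with 0 reads in HTSH020, is drawn at the left edge.

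Some rows with large differences were neighbors. On chromosome 10, YNR071C (a predicted sugar epimerase), SOR1 (sorbitol dehydrogenase), HXT13 (a hexose and polyol transporter) and MAN2 (mannitol dehydrogenase) followed each other between 714747 and 723024. YNR071C is added here after its values were seen. HXT13 on chromosome 10 was at 477 and 729 rescaled FPKM in HTSH020 and at 15.5 and 31.7 in IMX1765, a log2 difference of 4.67 ± 0.31 (adjusted p = 6.97e-05). The HXT13 row on chromosome 13 had more transcript and did not pass the test, at 1549 and 3432 in HTSH020 and at 1914 and 3969 in IMX1765 (−0.26 ± 0.54, adjusted p = 0.76). The row on chromosome 16 had nearly the same values, and the row on chromosome 5 did not pass either (0.29 ± 0.65, adjusted p = 0.772). The higher level of HXT13 was thus that of the less abundant rows on chromosomes 10 and 15. SOR1 was at 31.1 and 47.2 in HTSH020 and at 1.47 and 2.30 in IMX1765 (3.78 ± 0.35, adjusted p = 0.000315). MAN2 on chromosome 10 (the row from 721999 to 723024) was at 3191 and 6333 in HTSH020 and at 331 and 665 in IMX1765 (3.26 ± 0.57, adjusted p = 0.00608). These rows on chromosome 10 were higher in both hybrid cultures, YNR071C by 2.66 ± 0.41 (adjusted p = 0.00326). Of the genes with the 12 largest differences in each direction, MAN2 was the only one whose call did not hold when a maltose culture was left out (2.75, adjusted p = 0.0564, without IMX1765 culture 1).

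On chromosome 15, HXT13, MAN2 and ATO3, a gene for a putative ammonium exporter, lay between 751247 and 757397. HXT13 was at 395 and 594 rescaled FPKM in HTSH020 and at 13.9 and 27.6 in IMX1765 (4.55 ± 0.30, adjusted p = 6.97e-05). ATO3 was at 36.1 and 50.6 in HTSH020 and at 1.49 and 1.57 in IMX1765 (4.11 ± 0.28, adjusted p = 6.97e-05). The S. cerevisiae gene HXT13 was listed at 0 in both hybrid cultures on maltose. On glucose, the HXT13 rows on chromosomes 10 and 15, SOR1 and ATO3 were between 0 and 2.74 in every culture of both strains. The MAN2 row on chromosome 16 (1.25 ± 0.58, adjusted p = 0.149) and the YNR071C row on chromosome 7 (0.30 ± 0.38, adjusted p = 0.589) did not pass the test on maltose. How reads divide among rows of the same name is uncertain.

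Among the genes lower in the hybrid, several encode cell wall proteins. HPF1 (chr3:300511-302628), a mannoprotein known to reduce haze in wine, was at 151 and 309 rescaled FPKM in HTSH020 and at 4186 and 3546 in IMX1765. TIP1 (chr4:547779-548369), a mannoprotein of the cold-shock family, was at 32.6 and 35.1 in HTSH020 and at 455 and 433 in IMX1765. PIR3 (chr11:136638-137663), a cell wall glycoprotein, was at 30.1 and 65.3 in HTSH020 and at 229 and 278 in IMX1765. The means of the hybrid were 16.8-fold lower for HPF1, 13.1-fold for TIP1 and 5.31-fold for PIR3. The log2 differences were −4.15 ± 0.28, −3.68 ± 0.12 and −2.48 ± 0.33 (adjusted p = 6.97e-05, 3.68e-06 and 0.00165). HPF1 belongs to a repeat-rich family and its reads are uncertain.

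ADH2 (chr13:876005-877051), the alcohol dehydrogenase that oxidizes ethanol, was at 10.1 and 9.33 rescaled FPKM in HTSH020 and at 93.0 and 52.7 in IMX1765. It was 7.49-fold lower (−2.73 ± 0.25, adjusted p = 0.000271), while the S. cerevisiae ADH2 of the hybrid was at 725 and 876. STL1 (chr13:941375-943060), the glycerol symporter, was at 179 and 103 in HTSH020 and at 1115 and 755 in IMX1765 (−2.75 ± 0.27, adjusted p = 0.000416). SPS19 (chr14:257642-258520), a peroxisomal reductase of unsaturated fatty acid oxidation, was at 4.47 and 3.59 in HTSH020 and at 45.1 and 30.3 in IMX1765 (−2.92 ± 0.24, adjusted p = 0.000188). As the choice required, the cultures of these 3 genes did not overlap between the strains.

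YNL134C on chromosome 8, a predicted reductase, was at 2.95 and 5.10 rescaled FPKM in HTSH020 and at 32.2 and 47.8 in IMX1765 (−3.04 ± 0.25, adjusted p = 0.000185). Its S. cerevisiae counterpart was at 597 and 630.3 in the hybrid. Near the left end of chromosome 10, OSI1 (chr10:9355-10119), an oxidative stress gene, and YJL213W (chr10:11473-12798), of unknown function, were neighbors and both lower, OSI1 at 2.05 and 1.91 against 21.9 and 20.1, and YJL213W at 41.6 and 103 against 691 and 760.2 (adjusted p = 4.21e-05 and 0.000413). A further YJL213W row on chromosome 1 was lower by 2.61 on the log2 scale, and how reads divide between the YJL213W rows is uncertain.

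The mating-type genes gave the largest differences of all. HMRA1, which encodes the a1 repressor subunit of diploid cells, is listed on chromosome 3 at 201287 to 201771 and at 296271 to 296755. HTSH020 had 0 reads on either row in both maltose cultures, against 67.1 and 62.2 rescaled FPKM in IMX1765 for the first row. Set against a floor of 3 reads per library, it was at least 119-fold lower in the hybrid. The S. cerevisiae gene of this name was at 110.3 and 133 in the same hybrid cultures. MATALPHA2 and HMRA2, named here after their values were seen, were higher in the hybrid, MATALPHA2 at 218 and 247 against 89.97 and 90.02 (1.36 ± 0.11, adjusted p = 0.000134). MATALPHA1 was at 8.0 and 6.85 against 6.37 and 6.04 (adjusted p = 0.355). In the hybrid, the S. cerevisiae MATALPHA1 was at 0.372 and 0.437 and the S. cerevisiae MATALPHA2 at 316 and 351. The a1 transcript of HTSH020 was thus counted on the S. cerevisiae gene alone, and the α1 transcript mainly on the S. eubayanus gene. The α2 genes share sequence with the silent cassettes, so that the division of their reads is uncertain.

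In the lists below, most genes named are the called ones with the largest differences on maltose. That their hybrid cultures lay apart from the IMX1765 cultures follows largely from this choice and is no further result. The cultures did not overlap for 54.8% of all genes tested. Pyruvate decarboxylases and alcohol dehydrogenases lead from pyruvate to ethanol. Of 7 genes tested, 4 were higher in the hybrid (PDC1, PDC5, PDC6 and ADH5) and none lower, against 12.6% and 12.7% of all genes. The median log2 difference was 1.28, against 0.05 for all genes. PDC1, the main pyruvate decarboxylase gene, was at 6286 and 6843 rescaled FPKM in HTSH020 and at 1402 and 2843 in IMX1765 (1.72 ± 0.27, adjusted p = 0.0037). ADH5 was at 183 and 230.2 in HTSH020 and at 71.5 and 98.7 in IMX1765 (1.28 ± 0.17, adjusted p = 0.00169). Both were higher in both hybrid cultures. PDC6, a minor isozyme gene, was at 5.75 and 6.45 against 1.83 and 1.41 (1.44 ± 0.16, adjusted p = 0.000694). ADH1, the main fermentative alcohol dehydrogenase gene, was at 2703 and 3020 in HTSH020 and at 2934 and 4226 in IMX1765 (adjusted p = 0.201), and ADH3 and ADH4 did not pass the test either (0.00 and 0.08). The calls of the 4 higher genes held without each of the 4 maltose cultures in turn, and without IMX1765 culture 1 a further gene of the list was lower. On glucose, PDC1 was at 8106 and 7990.3 in HTSH020 and at 7808 and 7869 in IMX1765, and the median of the list was −0.08.

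Genes of the glyoxylate cycle and gluconeogenesis, which build sugars from acetate, were lower as 6 of 10, with none higher and a median of −0.57. The shares of all genes were 12.7% lower and 12.6% higher. MLS1, malate synthase, was at 16.8 and 14.4 rescaled FPKM in HTSH020 and at 40.4 and 46.6 in IMX1765 (−1.42 ± 0.16, adjusted p = 0.000738). ICL1, isocitrate lyase, was at 24.9 and 24.3 against 48.8 and 44.9 (−0.90 ± 0.19, adjusted p = 0.0122). CIT2, peroxisomal citrate synthase, was at 102 and 48.4 against 244 and 328 (−2.00 ± 0.47, adjusted p = 0.0183), with hybrid cultures that differed by more than the IMX1765 cultures. Both hybrid cultures were lower for each. Without IMX1765 culture 1, 3 of the 6 genes were called, the adjusted p of CIT2 was 0.0716 and that of ICL1 was 0.0628. Without IMX1765 culture 2, the adjusted p of CIT2 was 0.102, and in the fit of all 20 libraries of the series 1 gene of the list was lower.

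Genes of fatty acid β-oxidation and peroxisomes had the lowest median of the lists, −0.97. Of 24 genes, 13 were lower and 2 higher, against 12.7% and 12.6% of all genes. POT1 (chr9:26782-28035), the thiolase, was at 13.6 and 10.5 rescaled FPKM in HTSH020 and at 68.7 and 70.5 in IMX1765. It was 5.76-fold lower (−2.44 ± 0.17, adjusted p = 7.86e-05). POX1, acyl-CoA oxidase, was at 1.40 and 2.09 against 12.8 and 14.8 (−2.44 ± 0.20, adjusted p = 0.000169), and PXA1, a peroxisomal fatty acid transporter, at 6.13 and 8.48 against 41.2 and 43.3 (−2.39 ± 0.19, adjusted p = 0.000159). No culture overlapped between the strains for these genes. On glucose, 6 of the 24 were lower and 3 higher, with a median of −0.09, against 13.2% and 12% of all genes tested on glucose. In the fit of all 20 libraries, 5 were lower on maltose.

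Respiration genes that passed the test on maltose were mostly lower, while 12.7% of all genes were lower and 12.6% higher. Of 21 tricarboxylic acid cycle genes, 10 were lower and 1 higher (median −0.28), and of 39 respiratory chain and ATP synthase genes, 17 were lower and none higher (median −0.27). COX26, the subunit gene described above as higher, is not in this list. IDH2, isocitrate dehydrogenase, was at 375 and 348 rescaled FPKM in HTSH020 and at 805 and 696 in IMX1765 (−1.05 ± 0.10, adjusted p = 0.000386). CIT1, mitochondrial citrate synthase, was at 680.4 and 813 in HTSH020 and at 1394 and 1410.5 in IMX1765 (−0.91 ± 0.12, adjusted p = 0.00134). ATP20, a subunit gene of ATP synthase, was at 1046 and 1082 in HTSH020 and at 2452 and 2187 in IMX1765 (−1.12 ± 0.09, adjusted p = 0.000158). Both hybrid cultures were below both IMX1765 cultures for all 3. MAE1, malic enzyme, was the gene of the cycle list that was higher, at 116 and 62.5 against 36.8 and 42.6 (1.09 ± 0.25, adjusted p = 0.0164), which missed the threshold without IMX1765 culture 1 (adjusted p = 0.101) and without IMX1765 culture 2 (adjusted p = 0.0541), and was 0.65 without HTSH020 culture 1.

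The ATP synthase genes with the largest differences, ATP20, ATP3, ATP4 and ATP16, lie on chromosomes 4 and 16, whose genes were lower in the hybrid as a whole (described below). After the median of its chromosome was subtracted from each gene, 18 respiratory genes were lower and none higher, and 7 tricarboxylic acid cycle genes were lower and 2 higher. With the 4 maltose libraries alone, 7 respiratory and 5 cycle genes were lower, and in the fit of all 20 libraries 6 and 4. On glucose, 13 of the 39 respiratory genes were higher in the hybrid and 7 lower, with a median of 0.19. Of the 21 cycle genes, 6 were higher and 2 lower on glucose (median 0.22), against 12% and 13.2% of all genes.

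Genes for mitochondrial ribosomal proteins were lower on maltose as 21 of 72, with 4 higher, against 12.7% and 12.6% of all genes. Their median was −0.18. MRP51 was at 157 and 170.5 rescaled FPKM in HTSH020 and at 343 and 356 in IMX1765 (−1.09 ± 0.10, adjusted p = 0.000297). MRPS16 was at 272 and 299.9 against 554 and 523 (−0.91 ± 0.09, adjusted p = 0.000486). MRP2 and MRPS9 were lower too, by 0.98 and 0.88 on the log2 scale, and in none of these genes did the cultures overlap. MRPS9 lies on chromosome 4 and the others named on chromosome 16, whose genes were lower as a whole. After subtraction of the chromosome medians, the differences were −0.68 for MRP51, −0.50 for MRPS16, −0.57 for MRP2 and −0.49 for MRPS9. On glucose, in other libraries of the same strains, 57 of the 72 genes were higher in the hybrid and 1 lower, with a median of 0.62, against 12% and 13.2% of all genes. The difference between the strains was more negative on maltose than on glucose for 44 of the 72 and more positive for none, against 2.62% and 1.76% of all genes tested. In the fit of all 20 libraries, no gene was more negative on maltose, so that none of the 44 was called. After subtraction of the chromosome medians, 21 were lower on maltose and 1 higher. With the maltose libraries alone 7 were lower on maltose, and in the fit of all 20 libraries 12.

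Amino acid biosynthesis genes were higher in the hybrid as 25 of 56, with 3 lower, against 12.6% and 12.7% of all genes. Their median was 0.39. BAT2 (chr10:678171-679301), the cytosolic branched-chain aminotransferase, was at 429 and 385 rescaled FPKM in HTSH020 and at 98.6 and 119.8 in IMX1765. It was 3.72-fold higher (1.89 ± 0.13, adjusted p = 7.16e-05). ILV3, of isoleucine and valine synthesis, was at 571 and 450.2 against 186 and 221 (1.32 ± 0.14, adjusted p = 0.000621), and LYS4, of lysine synthesis, at 191 and 133 against 55.9 and 76.0 (1.28 ± 0.20, adjusted p = 0.00352). SER3, the first enzyme of serine synthesis, went the other way, at 47.8 and 33.9 against 130.3 and 127 (−1.65 ± 0.16, adjusted p = 0.00034). The cultures of the strains were apart for each of these genes. The number higher was 16 without IMX1765 culture 1, 38 without HTSH020 culture 2 and 13 with the maltose libraries alone. On glucose, 34 of the 56 were higher and 2 lower, against 12% and 13.2% of all genes.

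Of 35 genes of methionine synthesis and sulfate assimilation, 9 were higher and 2 lower, against 12.6% and 12.7% of all genes. Their median was 0.28. JLP1 (chr12:31036-32274), a sulfonate dioxygenase, was at 75.1 and 70.7 rescaled FPKM in HTSH020 and at 7.34 and 7.21 in IMX1765 (3.16 ± 0.13, adjusted p = 8.04e-06). SUL1, a sulfate permease gene, was at 23.7 and 20.9 against 3.19 and 3.10 (2.49 ± 0.16, adjusted p = 6.96e-05), and its S. cerevisiae counterpart was at 369 and 321 in the hybrid. MUP1, the high-affinity methionine permease gene, was at 27.9 and 19.1 against 3.97 and 3.18 (2.40 ± 0.23, adjusted p = 0.000336). These genes were higher in both hybrid cultures. The hybrid cultures disagreed on the list as a whole, in which 20 genes were higher and 1 lower without HTSH020 culture 2, and 8 higher and 10 lower without HTSH020 culture 1. With the maltose libraries alone 5 were higher, and in the fit of all 20 libraries 4.

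Of 23 genes for uptake of amino acids and other nitrogen sources, 10 were higher and 4 lower, against 12.6% and 12.7% of all genes. Their median was 0.27. OPT1, a peptide and glutathione transporter gene, was at 156 and 109 rescaled FPKM in HTSH020 and at 26.5 and 26.2 in IMX1765 (2.26 ± 0.17, adjusted p = 9.81e-05). AGP1, a broad amino acid permease gene, was at 222 and 213 against 53.1 and 70.4 (1.81 ± 0.18, adjusted p = 0.000479). PUT4, the proline permease gene, was at 234 and 205 against 72.5 and 65.9 (1.65 ± 0.15, adjusted p = 0.000248). DAL4, the allantoin permease gene, was lower, at 35.7 and 19.6 against 91.8 and 73.5 (−1.60 ± 0.25, adjusted p = 0.00339). Hybrid and IMX1765 cultures did not overlap for any of them, which the choice of large called differences favors. Without either IMX1765 culture, 9 were higher and 2 lower. In the fit of all 20 libraries, 6 were higher and 2 lower.

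Thiamine and vitamin B6 genes were higher on maltose as 9 of 35, with 1 lower, against 12.6% and 12.7% of all genes. Their median was 0.22. PET18, a gene of the thiamine group, was at 109 and 106 rescaled FPKM in HTSH020 and at 47.1 and 38.9 in IMX1765 (1.31 ± 0.15, adjusted p = 0.000919). THI20, a kinase of thiamine synthesis, was at 27.8 and 29.6 against 12.5 and 14.9 (1.02 ± 0.13, adjusted p = 0.00153), and SNZ1, of vitamin B6 synthesis, at 209 and 142 against 77.0 and 78.8 (1.14 ± 0.17, adjusted p = 0.00267). Both hybrid cultures were higher for each. On glucose, 17 of the 35 genes were lower in the hybrid and 2 higher (13.2% and 12% of all genes), with a median of −0.49. For 10 genes the difference between the strains was more positive on maltose, against 1.76% of all genes. On maltose, 5 genes were higher without IMX1765 culture 1, 4 without IMX1765 culture 2, 6 after chromosome centering and 4 with the maltose libraries alone. In the fit of all 20 libraries, none was called.

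Cytosolic ribosomal protein genes were higher as 34 of 129, with 4 lower, against 12.6% and 12.7% of all genes. Their median was 0.20. The count of 34 rested on single cultures and on the chromosome medians. It was 61 without HTSH020 culture 2, 16 (with 16 lower) without HTSH020 culture 1, 15 without IMX1765 culture 2 and 9 after chromosome centering. In the fit without the trend it was 21, with the maltose libraries alone 2 and in the fit of all 20 libraries 1. Among all genes, 388 of 5412 were higher after chromosome centering and 648 of 5412 without the trend. With the maltose libraries alone these were 202 of 5394, and in the fit of all 20 libraries 288 of 5420. RPL18B, a protein of the large subunit, was at 306 and 217 rescaled FPKM in HTSH020 and at 73.2 and 61.4 in IMX1765 (1.93 ± 0.16, adjusted p = 0.000221). RPS22B, of the small subunit, was at 120.1 and 88.6 against 370.4 and 329.6 (−1.75 ± 0.15, adjusted p = 0.000193). The cultures of these genes were apart in opposite directions. Ribosomal protein genes mostly exist as near-identical pairs, and the division of reads within a pair is uncertain.

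Of 24 heat shock chaperone genes, 9 were lower and 1 higher, against 12.7% and 12.6% of all genes. Their median was −0.23. KAR2, the chaperone of the endoplasmic reticulum, was at 285 and 326 rescaled FPKM in HTSH020 and at 517 and 605 in IMX1765 (−0.87 ± 0.11, adjusted p = 0.00134). FES1, an exchange factor of Hsp70, was at 111 and 96.2 against 181 and 245 (−1.02 ± 0.16, adjusted p = 0.0037). HSC82 on chromosome 16, one of the Hsp90 rows with shared reads, was at 175 and 230.1 against 408 and 588 (−1.28 ± 0.19, adjusted p = 0.00282). SSE2, an Hsp110 chaperone, was lower by 1.01 on the log2 scale, a call that missed the threshold without IMX1765 culture 2 (−0.89, adjusted p = 0.0538) and after chromosome centering (−0.61, adjusted p = 0.0701). Both hybrid cultures were lower for these genes. With the maltose libraries alone, 5 of the list were lower, and in the fit of all 20 libraries 5.

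Of 24 cell wall mannoprotein genes, 5 were higher and 8 lower, against 12.6% and 12.7% of all genes. With a median of −0.02, this list had no common direction. Without IMX1765 culture 1, 3 were higher and 6 lower, and without IMX1765 culture 2, 3 and 8. SPI1, of the weak acid response, was at 69.8 and 292 rescaled FPKM in HTSH020 and at 36.9 and 45.9 in IMX1765. Its adjusted p was 0.0454, 0.203 without IMX1765 culture 1 and 0.121 without IMX1765 culture 2, and its log2 difference was 0.75 without HTSH020 culture 2 and 2.79 without HTSH020 culture 1, against 1.77 with all. Of 10 flocculation genes, 4 were higher and none lower, against 12.6% and 12.7% of all genes. Their median was 0.46. FLO9 on chromosome 12 was at 9.0 and 8.75 against 2.37 and 2.15 (3.93-fold higher, adjusted p = 0.00033), and MGA1, a transcription factor gene of filamentous growth, at 8.09 and 22.4 against 1.97 and 2.59 (2.16 ± 0.46, adjusted p = 0.0126). The hybrid cultures were above the IMX1765 cultures for both genes, and FLO9 shares repeats with other flocculins. Leaving out either IMX1765 culture left 2 flocculation genes higher, and the adjusted p of MGA1 was then 0.0829 without culture 1 and 0.053 without culture 2.

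Of 23 hexose transporter genes, 3 were higher and 2 lower (median −0.11), a share near that of all genes. Of the HXT13 rows, those on chromosomes 10 and 15 were higher and those on chromosomes 5, 13 and 16 did not pass the test. HXT9 on chromosome 12, at 19.2 and 25.2 rescaled FPKM in HTSH020 and 10.3 and 13.8 in IMX1765, was the third row that was higher (0.83 ± 0.21, adjusted p = 0.0253). The call of HXT9 did not hold without IMX1765 culture 1 (0.63, adjusted p = 0.124) or without HTSH020 culture 2 (0.64, adjusted p = 0.0675). HXT5 on chromosome 13, a short row, was at 8.38 and 4.73 against 17.4 and 15.3 (−1.24 ± 0.24, adjusted p = 0.00884, and 0.058 without IMX1765 culture 1). Of 13 genes for use of ethanol, acetate and lactate, 3 were higher and 2 lower (median −0.09), against 12.6% and 12.7% of all genes. Besides ADH2 and ATO3, DLD2, a mitochondrial lactate and hydroxyglutarate enzyme, was lower at 96.9 and 94.2 against 190.1 and 194 (−1.0 ± 0.10, adjusted p = 0.000357). ALD5, mitochondrial acetaldehyde dehydrogenase, was higher at 109.7 and 68.6 against 44.1 and 33.9 (1.15 ± 0.22, adjusted p = 0.00847, and 0.0533 without IMX1765 culture 2).

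**Figure D3:**
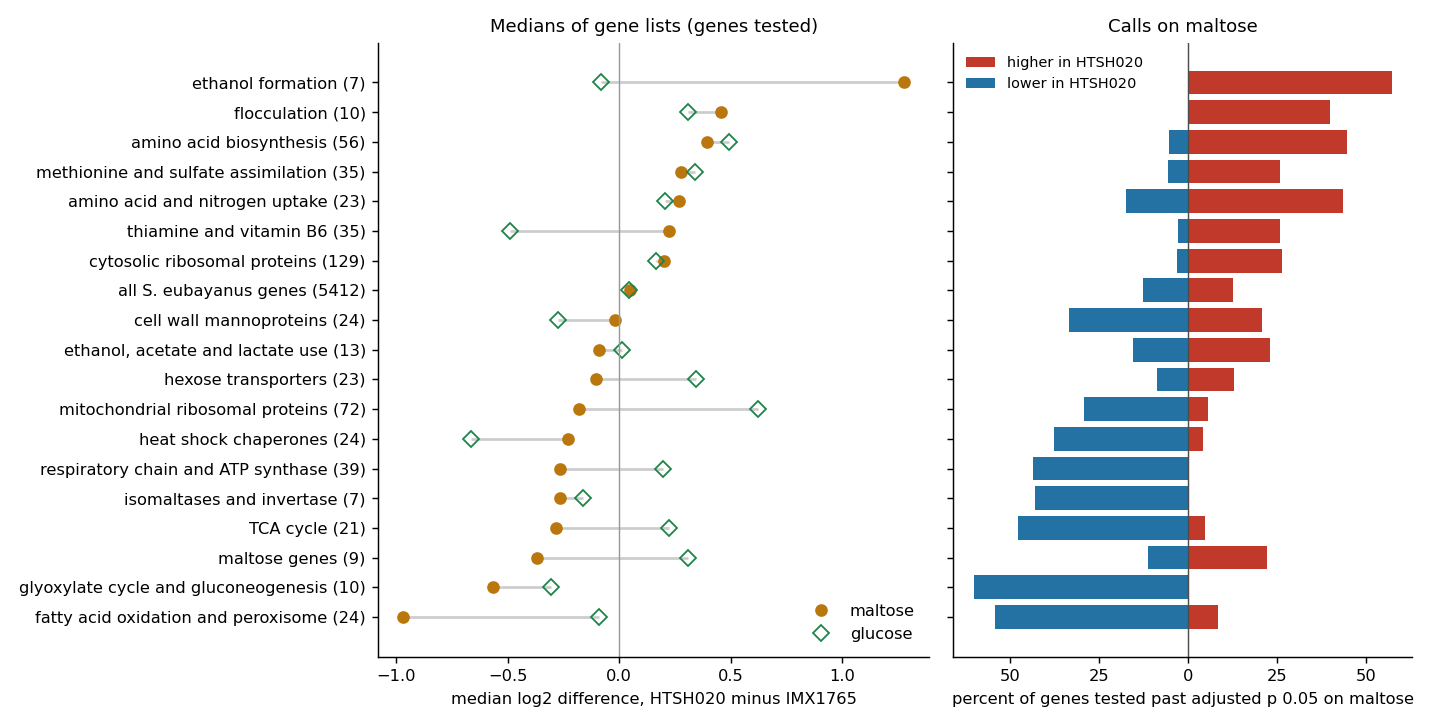
Median log2 difference, HTSH020 minus IMX1765, of the genes of each list on maltose (filled circles) and glucose (open diamonds), with the number of genes tested in parentheses (left), and the percent of each list past an adjusted p of 0.05 on maltose in either direction (right). Ethanol formation (median 1.28) and fatty acid oxidation and peroxisome (median −0.97) lie farthest from the median of all genes, 0.05, and mitochondrial ribosomal proteins lie on opposite sides of 0 on the 2 sugars.

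The differences depended on the chromosome. On chromosomes 4, 9, 15 and 16, the median log2 difference on maltose was −0.40, −0.27, −0.26 and −0.41, and on the other 12 chromosomes it was between 0.12 and 0.29. Of 1439 genes on the former, 499 (34.7%) were lower and 50 (3.47%) higher, and of 3972 genes on the latter, 188 (4.73%) were lower and 632 (15.9%) higher. On glucose, the medians were −0.42, −0.34, −0.23 and −0.36 on the 4 chromosomes and between 0.10 and 0.19 on the others. In HTSH020 culture 1 on maltose, the medians were between −0.35 and −0.18 on the 4 chromosomes and between 0.18 and 0.34 on the others, and in culture 2 between −0.53 and −0.33 and between 0.05 and 0.25. The groups of chromosomes were thus apart in each hybrid culture, by more than the spread of a median between cultures, which was between 0.0905 and 0.199.

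Chromosomes 4, 9 and 15 were also set apart between IMX1765 and its parent, and chromosome 16 within the hybrid. In IMX1765 against its parent CDFM21L.1 on glucose, the median difference was 0.32 on chromosome 4, 0.41 on chromosome 9 and 0.34 on chromosome 15, and −0.06 on chromosome 16, with −0.07 to 0.03 on the others. The IMX1765 glucose libraries enter this comparison and the one on glucose above. Within HTSH020 on maltose, S. eubayanus genes compared with the S. cerevisiae genes of the same systematic name had medians of −0.40 on chromosome 16 and between −0.06 and 0.13 on all other chromosomes. The hybrid libraries of this ratio are those of the comparison on maltose. Chromosomes 4, 9 and 15 were thus higher in IMX1765 than in its parent, and chromosome 16 was lower than its S. cerevisiae counterpart within the hybrid. DNA copy number was not analyzed here. After the median of its chromosome was subtracted from each gene, 388 genes were higher and 427 lower, of which 327 and 307 were called in the same direction without this step.

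**Figure D4:**
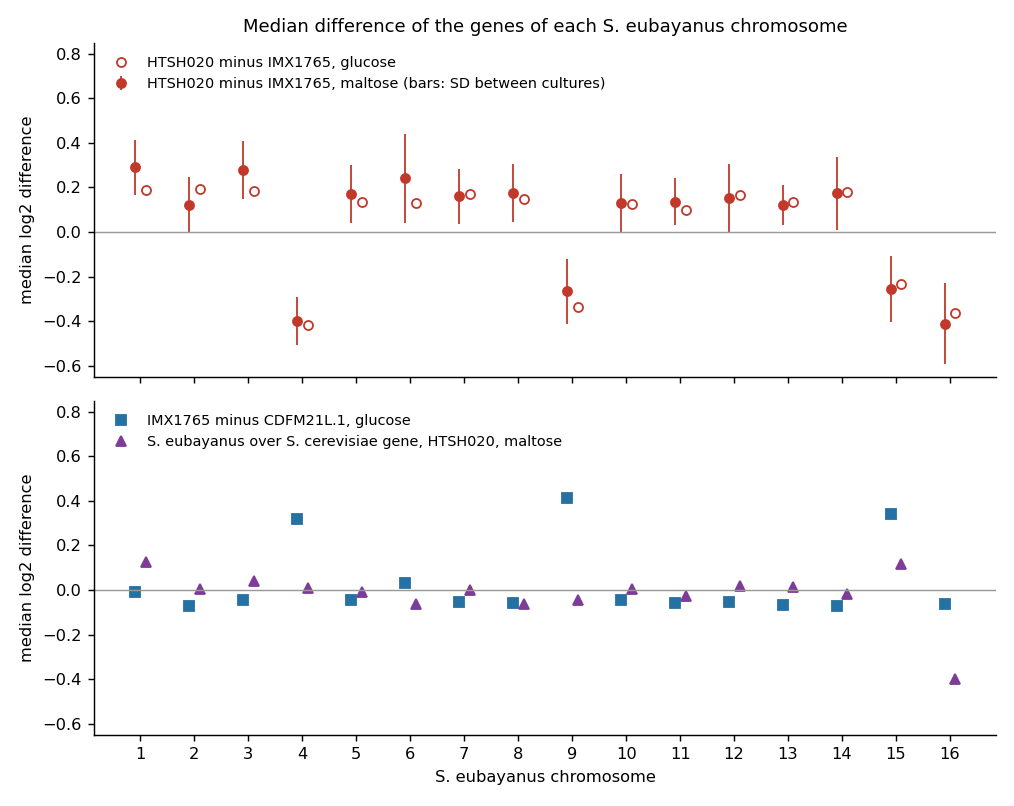
Median log2 difference of the genes of each S. eubayanus chromosome, above for HTSH020 minus IMX1765 on maltose (filled circles, bars give the SD between cultures) and glucose (open circles), and below for IMX1765 minus CDFM21L.1 on glucose (squares) and for S. eubayanus over S. cerevisiae genes within HTSH020 on maltose (triangles). Chromosomes 4, 9, 15 and 16 lie below 0 in the upper panel, chromosomes 4, 9 and 15 above 0.3 for the squares, and chromosome 16 at −0.40 for the triangles.

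Genes that also have an S. cerevisiae row of the same systematic name in the hybrid table were called at the share of all genes. Of 5280 such genes, 653 (12.4%) were higher and 670 (12.7%) lower. Of 132 genes without such a row, 29 (22.0%) were higher and 17 (12.9%) lower, with a median of 0.16. Reads of HTSH020 were mapped to both subgenomes and those of IMX1765 to 1, and the part of this in the differences was not tested.

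The comparison on glucose, with other libraries of the same strains, called 651 genes higher (12%) and 712 lower (13.2%). Of the 682 genes higher on maltose, 307 were also higher on glucose (45.0% of the maltose and 47.2% of the glucose calls) and 23 were lower. Of the 687 genes lower on maltose, 389 were also lower on glucose (56.6% and 54.6%) and 23 were higher. COX26, CHA1 and YHB1 were higher on both sugars, with COX26 at 232 and 289 rescaled FPKM in HTSH020 and at 14.8 and 20.6 in IMX1765 on glucose. The same held for HPF1 and YJL213W in the opposite direction, with HPF1 at 7.65 and 7.68 against 166 and 187. A difference between the strains that itself differed between the sugars was found for 237 genes (4.38%), more positive on maltose for 95 (1.76%) and more negative for 142 (2.62%). Without HTSH020 culture 1 on maltose, these were 292 and 379, without IMX1765 culture 1 they were 54 and 95, and in the fit of all 20 libraries 7 genes were more positive and none more negative.

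Among the genes named here, PDC5 had the largest difference of differences, 5.43 ± 0.92 (adjusted p = 0.019). It was at 1504 and 1982 rescaled FPKM in HTSH020 and at 2899.5 and 2798 in IMX1765 on glucose, where the 2 strains were not called different (adjusted p = 0.438). AGP1 was lower in the hybrid on glucose, at 13.7 and 17.3 against 89.8 and 114, and higher on maltose, a difference of differences of 4.45 ± 0.26 (adjusted p = 0.000193). TIP1 was at 17.9 and 15.6 in HTSH020 and at 24.2 and 25.9 in IMX1765 on glucose, and STL1 was between 1.37 and 2.33 in every glucose culture. The gap between the strains for TIP1 and STL1 was thus mostly seen on maltose.

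**Figure D5:**
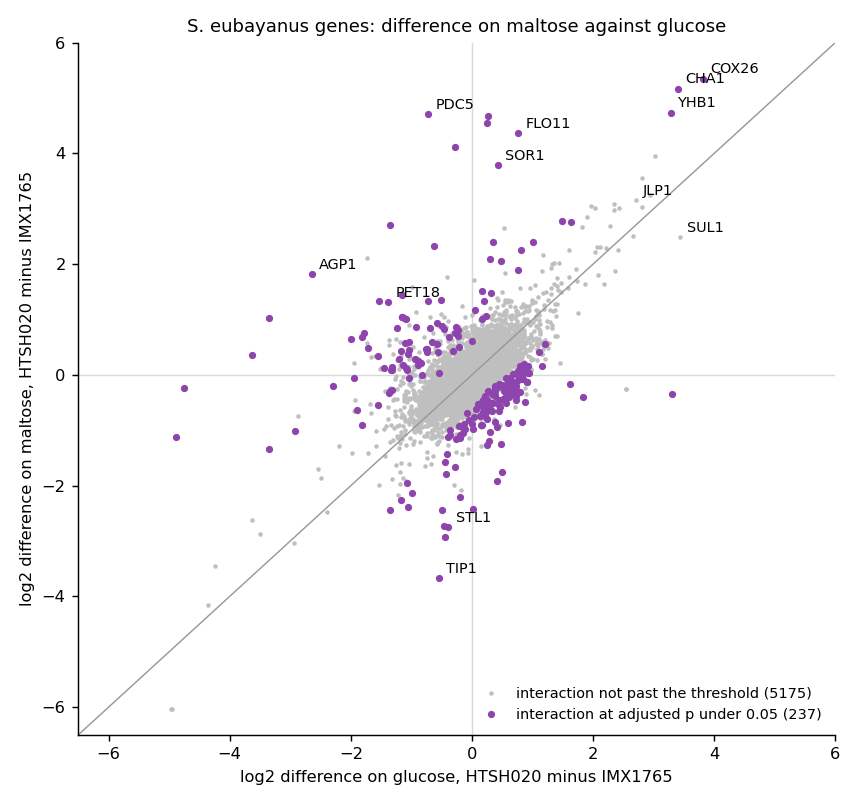
Log2 difference, HTSH020 minus IMX1765, of each S. eubayanus gene tested, on maltose (vertical axis) against glucose (horizontal axis), with the line of equal differences. The 237 genes whose difference itself differed between the sugars at an adjusted p under 0.05 are purple, and PDC5, FLO11 and TIP1 lie nearer 0 on glucose (−0.72, 0.76 and −0.55) than on maltose (4.71, 4.36 and −3.68), while COX26, CHA1 and YHB1 are high on both.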

How the data were processed

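mRNA of HTSH020 and IMX1765 was compared on maltose (2 cultures each), with the glucose cultures of both strains (2 each) in the same fit. Per the methods and the labels, the authors mapped TruSeq libraries (pairs of 150-base reads) with STAR (2.5.3a), IMX1765 to the CDFM21L.1 assembly and HTSH020 to a combined CBC-1 and CDFM21L.1 assembly. The methods name htseq-count in union mode with ambiguous reads removed, and the submitters' processing notes also name featureCounts of Subread (1.6.3), SAMtools and edgeR. The methods give an OD660 of 12 at sampling and the labels 12.5. The FPKM values deposited by the authors are scaled for library size and gene length, and the lengths, coordinates and names used are those of the files, with 5473 rows named by systematic name from a table of S. cerevisiae R64. Tables of the authors' own differential expression tests (fold changes and p values) were not used.

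Whole reads could be recovered from 100% of the FPKM values (within 0.05 reads). The S. eubayanus rows were rescaled to a sum of 1000000 per library. Differences were tested with limma (3.58.1, R 4.3.3), eBayes with trend, on log2(rescaled FPKM + 1) in 1 fit of 4 groups and 8 libraries, for all genes whose mean reached 1, with Benjamini-Hochberg adjustment and a threshold of 0.05. Tables were joined with Python 3.11.15 (pandas 2.3.3, NumPy 2.4.6) and plotted with matplotlib 3.10.9. The self-made gene lists (40, of which 18 are described in detail) and the genes were chosen with earlier results of these data known. Named are the maltose genes with SGA1, the isomaltases and SUC2, the 12 largest differences in each direction (called, no overlap, higher mean of at least 10), and up to 4 called genes of each list described, with others that did not pass. Alternatives were median ratio and quantile scaling, chromosome centering, a pseudocount of 0.1, no filter and a filter at 5, the maltose libraries alone, all 20 libraries, the 14 glucose and maltose libraries (chosen after seeing the data), a replicate block, no trend, divided gene models kept apart, voom on recovered reads, a 2-fold minimum and leaving out each maltose culture. For SeAGT1, the rows on chromosomes 7 and 15 had nearly equal reads and the row on chromosome 14 slightly fewer. Reads on near-identical genes may thus have been counted at each. No S. eubayanus sequence is printed.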

Additional observations from a re-analysis of the deposited data

Results flagged for a closer look

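The genes below are those named above whose difference between HTSH020 and IMX1765 on maltose differed from that on glucose. The criterion was the interaction term of the limma fit at an adjusted p under 0.05, which 237 of all genes met. Most of the named genes were chosen for large differences on maltose, and the same maltose values enter this term. In the fit of all 20 libraries, 7 of all genes were more positive on maltose and none more negative. The values are the log2 difference on maltose minus that on glucose. They were more positive on maltose for PDC5 (5.43), AGP1 (4.45), HXT13 on chromosomes 10 (4.41) and 15 (4.31), ATO3 (4.38), FLO11 (3.60), SOR1 (3.36), PET18 (2.70), PDC6 (2.59), THI20 (2.14), MUP1 (2.06), CHA1 (1.76), COX26 (1.54), YHB1 (1.45), THI7 on chromosome 12 (1.37), BAT2 (1.13) and SUC2 (0.83). COX26, CHA1, YHB1 and BAT2 were higher in HTSH020 on both sugars, with the larger difference on maltose.

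They were more negative on maltose for the cell wall gene TIP1 (−3.12), for SPS19 (−2.48), POX1 (−1.94), PXA1 (−1.34) and POT1 (−1.09) of fatty acid oxidation, for the glycerol symporter gene STL1 (−2.36), for ADH2 (−2.26), for the short HXT5 row on chromosome 13 (−1.72), and for MLS1 (−1.01), IDH2 (−0.90), ATP20 (−0.72) and DLD2 (−0.64) of acetate use and respiration. The same held for the mitochondrial ribosomal protein genes MRPS16 (−1.07), MRPS9 (−0.89), MRP2 (−0.84) and MRP51 (−0.72).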

How the results depend on the processing

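Of the 85 named genes with a call, 56 were called in the same direction under every alternative, and of 1610 values of the 95 named genes, 1503 kept their direction and their side of the threshold. With 2 cultures per group, calls rest on the spread shared across genes. Centering on chromosome medians called 388 genes higher and 427 lower on maltose and 867 on glucose. The 4 maltose libraries alone called 202 and 226. All 20 libraries, among them an IMX1765 maltotriose library of 318922 reads, called 288 and 334, with 602 on glucose and 7 for the difference between sugars. Requiring 2-fold left 159 and 113, with 276 on glucose and 127 for the difference between sugars. Leaving out 1 maltose culture gave 388 to 1123 genes higher and 503 to 892 lower. For these counts the cause was not tested, beyond the fewer libraries or the fold minimum of the setting itself. The replicate block called 712 and 710, and among the 9 maltose genes 4 higher and 2 lower in place of 2 and 1. Same-numbered cultures deviated together with correlations of 0.109 to 0.389 between groups (0.234 between the maltose groups), but with 2 numbers and no label that ties them, they share only a number. Voom on recovered reads called 729 and 714.

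The genes that changed sign were not called in the reported fit. SUC2 (0.00) was −0.0205 with median ratio scaling, −0.0818 with quantile scaling and −0.00073 with voom. Leaving out 1 maltose culture gave −0.0243 to 0.0262 for SUC2, −0.90 to 0.17 for SeAGT1, −0.98 to 0.0704 for SeMALR2, and −0.49 to 0.15 and −0.87 to 0.33 for the short IMA2 rows on chromosome 2. In the hybrid, 3 reads on a gene of 1000 bases were worth about 0.3 rescaled FPKM, so that lower levels could not be ranked. Counting error is included in the spread between cultures.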

Other observations

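Further lists were described by their counts on maltose, beside 12.6% of all genes higher and 12.7% lower. Of 34 iron and copper uptake genes, 9 were higher in HTSH020 and 3 lower, with a median of 0.14. The number higher was 7 to 9 when a maltose culture was left out, 5 in the fit of all 20 libraries and 4 with the maltose libraries alone. Of 55 genes for mitochondrial protein import and assembly, 13 were lower and 5 higher on maltose. On glucose, 21 of them were higher and 2 lower, against 12% and 13.2% of all genes tested on glucose. With the maltose libraries alone, 3 of them were lower and 1 higher on maltose. Of 29 oxidative stress genes, 6 were higher and 8 lower, and without IMX1765 culture 1, 3 and 4.

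For some lists the HTSH020 cultures on maltose did not agree. Of 86 ribosome biogenesis genes, 3 were higher and 1 lower with both cultures, 54 were higher and 1 lower without culture 2, and 2 were higher and 20 lower without culture 1. Of 21 trehalose and glycogen genes, 2 were higher and none lower with both cultures. SGA1, which is replaced in IMX1765, was 1 of these 2 and had the largest difference of the list (2.01). The median of the list was 0.25 with both cultures, −0.31 without culture 2 and 0.88 without culture 1. Of 19 genes of stationary phase and hydrophilins, 3 were higher and 3 lower with both cultures, 3 and 8 without culture 2, and 9 and none without culture 1. Culture 1 is the one whose description names the maltotriose medium. On glucose, none of these 19 genes was higher and 11 were lower, with a median of −1.31, against 12% and 13.2% of all genes.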
